A study of Mus musculus with 3 samples.

Results

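The Hox genes encode homeodomain transcription factors, and all of those measured by a probe set of their own were followed across 3 mouse arrays. Members were all genes named Hoxa, Hoxb, Hoxc or Hoxd followed by a number, taken from probe sets that carry a single gene symbol. This gave 37 genes, each with 1 probe set, of 19938 genes measured in all. The RefSeq gene table holds 39 mouse Hox genes, and the remaining 2 were not analysed here. A probe set shared by Hoxb8 and Hoxb7 named no gene. It had intensities of 38.8 in DiBA, 43.7 in BA and 50.7 in fibroblasts.

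RNA from 3 sources was compared, with 1 array each. DiBA are cultured cells, which the title of the series places among brown adipocytes made by direct conversion. The labels do not give the conversion agents, their dose or the time in culture. BA has brown adipose tissue as its labelled source, while its description calls it cultured, and neither the fat depot nor the animal's age or strain is given. The fibroblasts are labelled as cultured mouse fibroblasts, with no body site, age or strain, and whether DiBA were made from these same fibroblasts is not stated. With 1 array a group there is no spread between replicates and no test, so every difference below describes these 3 arrays.

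Mouse Hox genes lie in 4 clusters, Hoxa on chromosome 6, Hoxb on chromosome 11, Hoxc on chromosome 15 and Hoxd on chromosome 2. Genes at matching places in different clusters are paralogues and share a number. Low numbers, at the 3′ end of a cluster, are used from the hindbrain and neck backwards in the embryo, and high numbers, at the 5′ end, are used in the lumbar, sacral and tail region and in the outer limb. Fibroblasts and fat depots of the adult keep much of this pattern, which makes the set of active Hox genes a record of body position. Paralogues 1 to 3, 4 to 8 and 9 to 13 are treated below as the anterior, middle and posterior genes.

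The arrays were checked against the markers of their labels. Of 14 general adipocyte markers measured, all were at least 2-fold higher in DiBA and in BA than in fibroblasts. Ucp1, which encodes the heat-producing uncoupling protein, had intensities of 4598 in DiBA, 4995 in BA and 23.5 in fibroblasts. Of 15 brown adipocyte markers, 12 were called higher, 0 lower and 3 were not called in both DiBA and BA. The 3 were Lhx8, Epsti1 and Zic1, and Zic1, a brown fat precursor marker, had 160.4 in DiBA, 168 in BA and 282.5 in fibroblasts, log2 differences of -0.81 and -0.74. Fibroblast and matrix markers summed to 23960 in DiBA, 18606 in BA and 67321 in fibroblasts over 21 genes, and 0 of the 21 lay under 69.2 in fibroblasts. The value 69.2 is the median intensity of all probe sets over the 3 arrays. A gene is called higher or lower where it differs at least 2-fold on the log2(intensity + 1) scale and the brighter of the 2 arrays reaches 69.2. Over all genes, 8.54% were called higher in DiBA and 9.51% in BA than in fibroblasts. With intensities below 69.2 raised to that value, all 14 general and 10 of the 15 brown adipocyte markers remained at least 2-fold higher in each. Dio2 and Elovl3 then fell short of 2-fold.

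In DiBA against fibroblasts, 8 of the 37 Hox genes were called lower and 0 higher. All 8 were posterior: Hoxa10, Hoxb9, Hoxc9, Hoxc10, Hoxc12, Hoxd10, Hoxd11 and Hoxd13. They make up 8 of the 16 posterior genes, the other 8 of which were not called, beside 0 of 14 middle and 0 of 7 anterior genes. Over all 19938 genes, 7.67% were called lower and 8.54% higher, against 21.6% and 0% of the Hox genes.

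The median log2 difference of DiBA minus fibroblasts was -0.97 over the 16 posterior genes, -0.03 over the 14 middle genes and -0.12 over the 7 anterior genes, and it was 0 over all genes. With intensities below 69.2 raised to that value as a floor, the medians were -0.52 over posterior genes and 0 over middle and over anterior genes. Among genes that reached 69.2 on either array, 13.2% were called lower and 14.7% higher. Of the posterior genes, 10 reached it, each with its brightest value in fibroblasts, which favours lower calls, so the count over all 16 is the one to read. Each sample is bulk RNA, in which fewer cells of a type and less RNA per cell cannot be told apart.

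BA set against fibroblasts gave 9 Hox genes called lower and 0 higher. The 9 were the same 8 genes and Hoxa13, so that 9 of the 16 posterior genes were lower, beside 0 of 14 middle and 0 of 7 anterior genes. Over all genes, 9.59% were called lower and 9.51% higher, against 24.3% and 0% of the Hox genes. Among genes that reached 69.2 on either array these shares were 16.4% and 16.3%. All 9 called Hox genes had BA values under 69.2 and reached it only in fibroblasts, which favours lower calls. With the floor 6 of them remained lower. The median log2 difference of BA minus fibroblasts was -1.31 over posterior, -0.07 over middle and -0.12 over anterior genes, and with the floor -0.54, 0 and 0. Both comparisons use the same fibroblast array, so their likeness is not independent evidence.

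**Figure D1:**
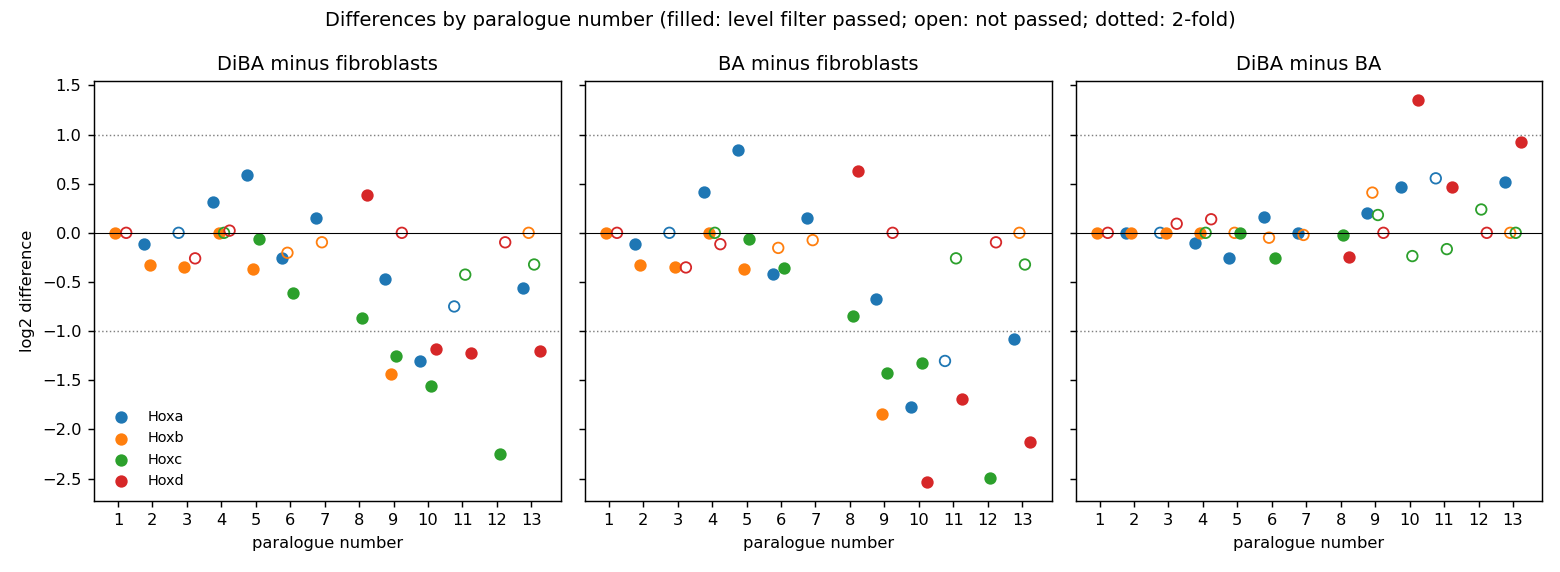
Log2 difference in intensity (vertical axis) against paralogue number (horizontal axis), 1 point per Hox gene coloured by cluster, for DiBA minus fibroblasts, BA minus fibroblasts and DiBA minus BA. Filled points reached an intensity of 69.2 on either array, and dotted lines mark 2-fold. Genes below the lower line start at paralogue 9 in both comparisons with fibroblasts, and Hoxd10 is the point above the upper line in DiBA minus BA.

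Across all 37 genes, Spearman's rho of the difference with paralogue number was -0.51 and Pearson's r -0.53 for DiBA minus fibroblasts. For BA minus fibroblasts they were -0.49 and -0.55. The difference did not grow steadily with number. Mean log2 differences for paralogues 9, 10, 11, 12 and 13 were -0.79, -1.35, -0.80, -1.18 and -0.52 in DiBA. In BA they were -0.99, -1.87, -1.08, -1.29 and -0.88. The coefficients therefore do not show a slope within the posterior genes. These coefficients and means run across genes of 3 arrays, which are not independent replicates, and include genes under 69.2 on every array, 13 of the 37.

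The promoters of 4 genes that differ in opposite directions are printed, since the members of a cluster differ by position. Each is 300 bases of GRCm38.p6 from RefSeq, from 250 bases before to 50 after the gene start, read along the gene from 5′ to 3′. Capitals mark CG dinucleotides, which are dense in CpG islands, where Polycomb proteins gather at silent Hox clusters. Hoxd13 and Hoxd10 were lower in DiBA and BA than in fibroblasts, and Hoxa5 and Hoxd8 had higher values there that stayed under 2-fold. Hoxd13 lies at chr2:74667975-74668274 (+), Hoxd10 at chr2:74691641-74691940 (+), Hoxd8 at chr2:74704365-74704664 (+) and Hoxa5 at chr6:52204538-52204837 (-).
Hoxd13: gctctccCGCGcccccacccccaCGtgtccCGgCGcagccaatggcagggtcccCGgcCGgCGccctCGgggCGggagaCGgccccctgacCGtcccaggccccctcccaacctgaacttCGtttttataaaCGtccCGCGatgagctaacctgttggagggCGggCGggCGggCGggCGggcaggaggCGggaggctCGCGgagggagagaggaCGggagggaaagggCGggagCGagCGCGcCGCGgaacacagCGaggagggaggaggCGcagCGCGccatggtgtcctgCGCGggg
Hoxd10: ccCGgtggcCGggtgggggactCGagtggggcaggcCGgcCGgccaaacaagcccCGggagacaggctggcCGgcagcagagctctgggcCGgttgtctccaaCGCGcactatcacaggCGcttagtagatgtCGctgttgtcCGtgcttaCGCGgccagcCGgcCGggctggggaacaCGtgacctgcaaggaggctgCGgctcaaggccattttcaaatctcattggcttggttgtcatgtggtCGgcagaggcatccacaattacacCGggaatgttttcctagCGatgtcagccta
Hoxd8: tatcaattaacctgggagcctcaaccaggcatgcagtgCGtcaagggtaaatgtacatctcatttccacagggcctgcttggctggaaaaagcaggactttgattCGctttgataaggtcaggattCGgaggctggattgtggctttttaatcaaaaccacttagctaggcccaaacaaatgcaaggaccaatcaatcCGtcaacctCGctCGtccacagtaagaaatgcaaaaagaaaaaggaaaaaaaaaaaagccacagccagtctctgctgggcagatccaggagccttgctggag
Hoxa5: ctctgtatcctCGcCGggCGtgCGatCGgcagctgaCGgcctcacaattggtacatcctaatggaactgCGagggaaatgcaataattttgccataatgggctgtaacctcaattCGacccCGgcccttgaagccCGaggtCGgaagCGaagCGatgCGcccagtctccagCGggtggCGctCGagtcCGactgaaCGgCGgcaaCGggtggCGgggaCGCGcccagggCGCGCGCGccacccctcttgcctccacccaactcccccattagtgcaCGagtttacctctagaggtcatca

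The window of Hoxd13 held 37 CG dinucleotides, that of Hoxd10 held 22, that of Hoxd8 held 6 and that of Hoxa5 held 29, where the median of 32851 promoter windows was 7. Hoxa5 and Hoxd8 were not called, and whether CG content goes with the differences was not tested. RefSeq windows were at hand for 21 of the 37 genes, 23 windows in all. The 11 posterior windows had a median of 20 CG dinucleotides (range 4 to 45), and the 12 middle and anterior windows had 12 (range 4 to 29).

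The joint HOX and PBX motif TGATNNAT, searched on both strands, was found in 1 of 11 posterior and 2 of 12 other windows, beside 8.85% of all windows. The motif TTTATNG of CDX and posterior HOX proteins was found in 0 of 11 and 1 of 12, beside 10.9%, and the MEIS motif TGACAG in 0 of 11 and 2 of 12, beside 19.2%. Overlapping matches of different motifs were each counted, and a match is a description of the letters. The CCAAT box, searched as CCAAT, was found in 5 of 11 and 9 of 12 windows, beside 37.4% of all.

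Paralogues 9 pattern the thorax. Hoxb9 had an intensity of 62.8 in DiBA, 47.0 in BA and 171 in fibroblasts. It was 2.70-fold lower in DiBA and 3.59-fold lower in BA than in fibroblasts. Only its fibroblast value lay above 69.2, and with lower intensities raised to 69.2 both folds were 2.46. Hoxc9, which sets the identity of thoracic motor neurons and is known in mice as a gene of subcutaneous white fat, had 32.8 in DiBA, 28.8 in BA and 79.4 in fibroblasts. It was 2.38-fold lower in DiBA and 2.69-fold lower in BA, and 1.15-fold lower in each with that floor. Hoxc9 was near the median array signal even in fibroblasts, so its call rests on values below it.

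Hoxa9, at 70.4 in DiBA, 61.2 in BA and 98.2 in fibroblasts, was 1.39-fold and 1.59-fold lower, and was not called. Hoxd9 had 53.0 on each of the 3 arrays.

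Paralogues 10 suppress rib formation in the lumbar region and pattern the upper limb segment. All 3 were called lower in both comparisons with fibroblasts. Hoxa10 had 84.8 in DiBA, 61.3 in BA and 211 in fibroblasts, a value 2.47-fold lower in DiBA and 3.40-fold lower in BA. Hoxd10 had 80.7 in DiBA, 31.1 in BA and 184 in fibroblasts, 2.27-fold lower in DiBA and 5.78-fold lower in BA, or 2.64-fold lower in BA with the floor. In both genes DiBA lay above 69.2 and BA under it, so the order of DiBA and BA is not read. Hoxc10, a gene of lumbar motor neurons that is known in mouse subcutaneous fat as a repressor of browning, had 34.4 in DiBA, 40.7 in BA and 104 in fibroblasts. It was 2.95-fold lower in DiBA and 2.51-fold lower in BA, and 1.49-fold lower in each with the floor, which ends the call. Both its DiBA and its BA value lay under 69.2, so their order is not read.

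Paralogues 11 pattern the sacral vertebrae and the middle limb segment. Hoxd11 had 81.4 in DiBA, 58.7 in BA and 192 in fibroblasts, 2.34-fold lower in DiBA and 3.23-fold lower in BA. Hoxa11 had 37.3 in DiBA, 25.1 in BA and 63.4 in fibroblasts, which is the same order of arrays, but 0 of its values reached 69.2 and it was not called. Hoxc11 had 23.8 in DiBA, 26.8 in BA and 32.3 in fibroblasts, all dim.

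Paralogues 12 and 13 stand at the 5′ end of the clusters. Hoxc12 had 33.4 in DiBA, 28.2 in BA and 163 in fibroblasts, 4.77-fold lower in DiBA and 5.62-fold lower in BA, or 2.34-fold lower in each with the floor. Hoxd13, which with Hoxa13 directs the formation of digits, had 80.7 in DiBA, 42.0 in BA and 187 in fibroblasts, 2.30-fold lower in DiBA and 4.37-fold lower in BA, or 2.68-fold lower in BA with the floor. Hoxa13 had 71.8 in DiBA, 49.9 in BA and 106 in fibroblasts, 1.48-fold lower in DiBA and 2.11-fold lower in BA. The call of Hoxa13 in BA lay near the 2-fold threshold and was 1.53-fold with the floor. Hoxb13, Hoxc13 and Hoxd12 were at or under 44.7 on every array. Hoxb13 was at 41.4 throughout.

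**Figure D2:**
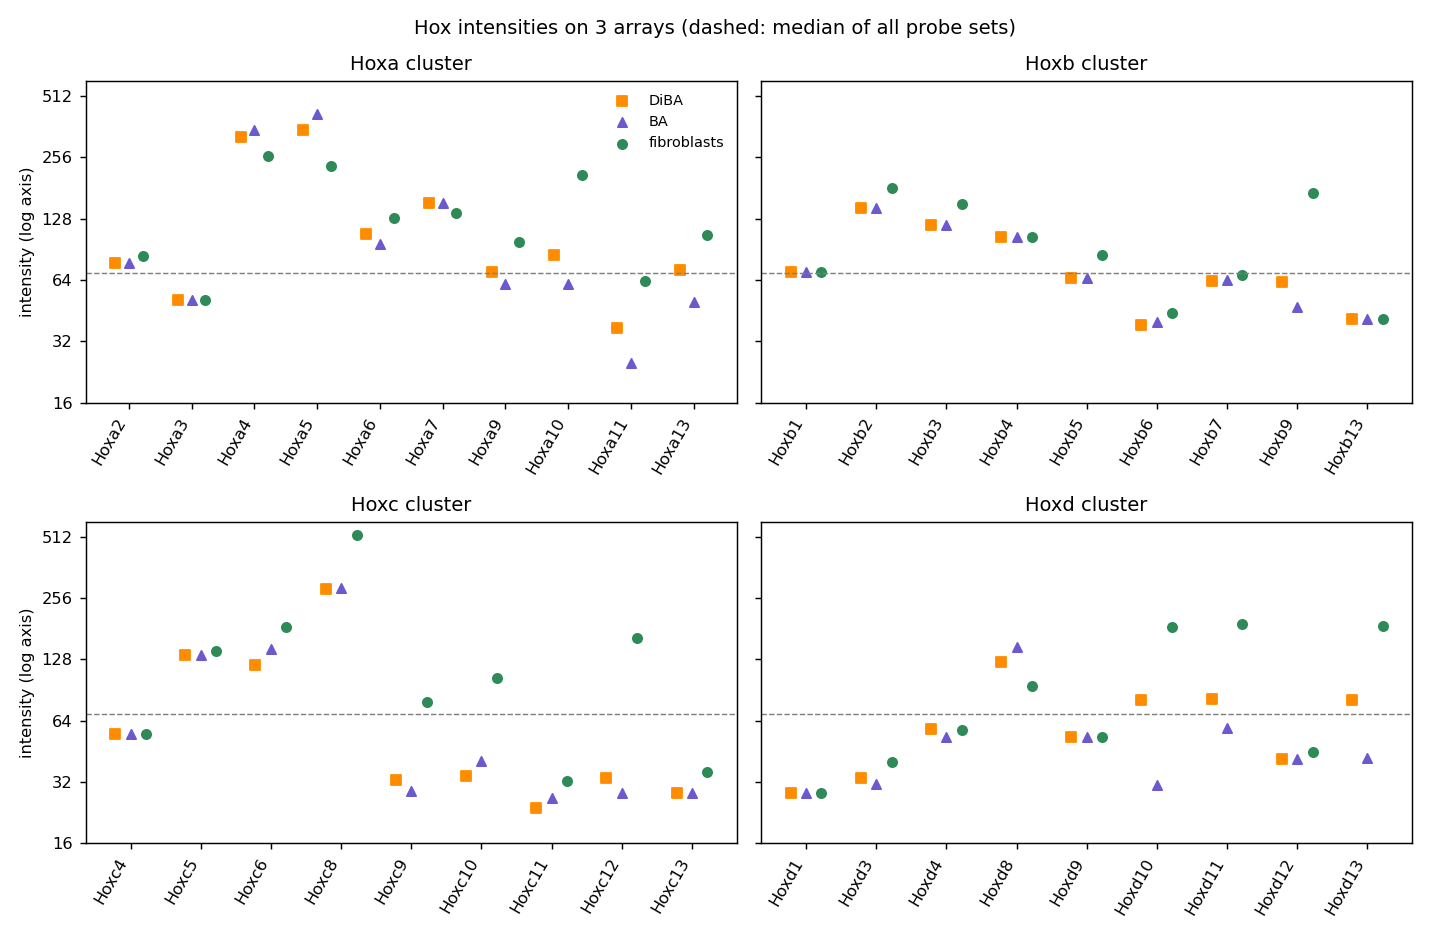
Intensity on a log axis (vertical) of each measured Hox gene, in the 3′ to 5′ order of paralogue numbers from left to right, with 1 panel per cluster and 1 point per array for DiBA, BA and fibroblasts. The dashed line is 69.2, the median of all probe sets. The fibroblast point stands apart above the other 2 for Hoxa10, Hoxb9, Hoxc12, Hoxd10, Hoxd11 and Hoxd13, whose differences stay past 2-fold with the floor. It also stands above them for Hoxc8, by less than 2-fold, and for Hoxc9 and Hoxc10, whose calls end with the floor.

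The middle genes include the Hox genes with the highest values in DiBA and BA relative to fibroblasts. Hoxa5, which patterns the neck and upper thorax and is active in fat tissue, had 350.0 in DiBA, 418 in BA and 233 in fibroblasts, log2 differences of 0.59 in DiBA and 0.84 in BA, or 1.79-fold higher in BA. Hoxa4 had 324 in DiBA, 347 in BA and 260 in fibroblasts, with folds of 1.25 and 1.34. Hoxd8 had 124 in DiBA, 147 in BA and 95.0 in fibroblasts, with folds of 1.30 and 1.54. In all 3 genes BA was highest and fibroblasts lowest, and 0 of the differences reached 2-fold. Hoxa7 was 1.11-fold higher in both, at 152 in DiBA and BA and 137 in fibroblasts.

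Other middle genes were lower. Hoxc8, which in mouse white fat precursors restrains Cebpb and brown conversion, had 285 in DiBA, 289 in BA and 521 in fibroblasts, 1.82-fold and 1.80-fold lower, under the threshold. Hoxc6 had 121 in DiBA, 144 in BA and 186 in fibroblasts, 1.53-fold and 1.28-fold lower. Hoxa6 had 108 in DiBA, 96.4 in BA and 129 in fibroblasts, and Hoxb5 had 65.5 in DiBA and BA and 85.0 in fibroblasts. Hoxb4 at 104 was the same on all 3 arrays, and Hoxc5 had 135 in DiBA and BA and 141 in fibroblasts. Hoxa5 and Hoxa6, neighbours in 1 cluster, differed in sign, each by less than 2-fold.

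Among the anterior genes, which pattern the hindbrain and the pharyngeal arches, 4 of 7 reached 69.2 and 0 were called. Hoxb2 had 144 in DiBA, 144 in BA and 181 in fibroblasts, and Hoxb3 had 119 in DiBA, 119 in BA and 151 in fibroblasts, 1.26-fold and 1.27-fold lower. Hoxa2, which gives the second pharyngeal arch its identity, had 77.7 in DiBA and BA and 84.3 in fibroblasts. Hoxb1, a gene of the hindbrain segment that forms the facial nerve, was at 70.4 on all 3 arrays.

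In DiBA set directly against BA, 1 of 37 Hox genes was called higher and 0 lower. That gene was Hoxd10, 2.55-fold higher in DiBA. Over all genes, 0.973% were called higher and 0.0% lower, or 1.75% and 0.0% of those that reached 69.2 on either array. The call rests on a dim BA value, and with the floor the fold was 1.16. Hoxd13 was 1.90-fold higher in DiBA, not called, and also 1.16-fold with the floor. The BA values of Hoxa10, Hoxa11, Hoxa13, Hoxd11 and Hoxd13 all lay under 69.2, so no order is read among these genes. With the floor Hoxa10 was 1.22-fold, Hoxd11 1.18-fold and Hoxa13 1.04-fold higher in DiBA, and Hoxa11 did not differ.

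The median log2 difference of DiBA minus BA was 0.22 over posterior, -0.01 over middle and 0 over anterior genes, and 0.0 over all genes. With low intensities raised to 69.2, all 3 of these Hox medians were 0. The level order fibroblasts above DiBA above BA was met by 10 of 16 posterior genes, 1 of 14 middle and 1 of 7 anterior genes, beside 17.7% of all genes. In 4 of the 10, Hoxa11, Hoxb9, Hoxc9 and Hoxc12, both DiBA and BA lay under 69.2. With the floor the order was met by 6 of 16 posterior, 1 of 14 middle and 0 of 7 anterior genes, beside 14.7% of all genes. In these 6 posterior genes BA was at the floor. DiBA lay only 1.02-fold (Hoxa9) to 1.22-fold (Hoxa10) above it, so their order is not read as a posterior trait. The reverse order was met by 3 middle genes, beside 18.4% of all genes. Many deposited values are identical between arrays: 14 of the 37 Hox probe sets had the same intensity in DiBA and BA and 7 on all 3 arrays, beside 47.3% and 33.4% of all probe sets. Such ties come with the deposited values and do not measure how alike the samples were.

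The calls were also counted by cluster, beside 7.67% of all genes called lower in DiBA and 9.59% in BA. In Hoxd, 3 of 9 genes were called lower in each comparison with fibroblasts, and Hoxd8 beside them was higher in value. In Hoxc, 3 of 9 were lower, and the lower values began at Hoxc6 and Hoxc8, under 2-fold. In Hoxb, 1 of 9 was called lower, Hoxb9, and the uncalled Hoxb2, Hoxb3 and Hoxb5 had values 1.26-fold, 1.27-fold and 1.29-fold lower in both comparisons. In Hoxa, 1 of 10 was lower in DiBA and 2 of 10 in BA. The Hoxb counts, and the Hoxa count in DiBA, are near the share over all genes. With the floor, 3 Hoxd genes remained at least 2-fold lower in each comparison, but only 1 gene in each of Hoxa, Hoxb and Hoxc. The calls of Hoxc9 and Hoxc10 ended with it, so the Hoxc count was then no higher than that of Hoxb. Over all 19938 genes, 1382 in DiBA and 1699 in BA were at least 2-fold lower with the floor.

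**Figure D3:**
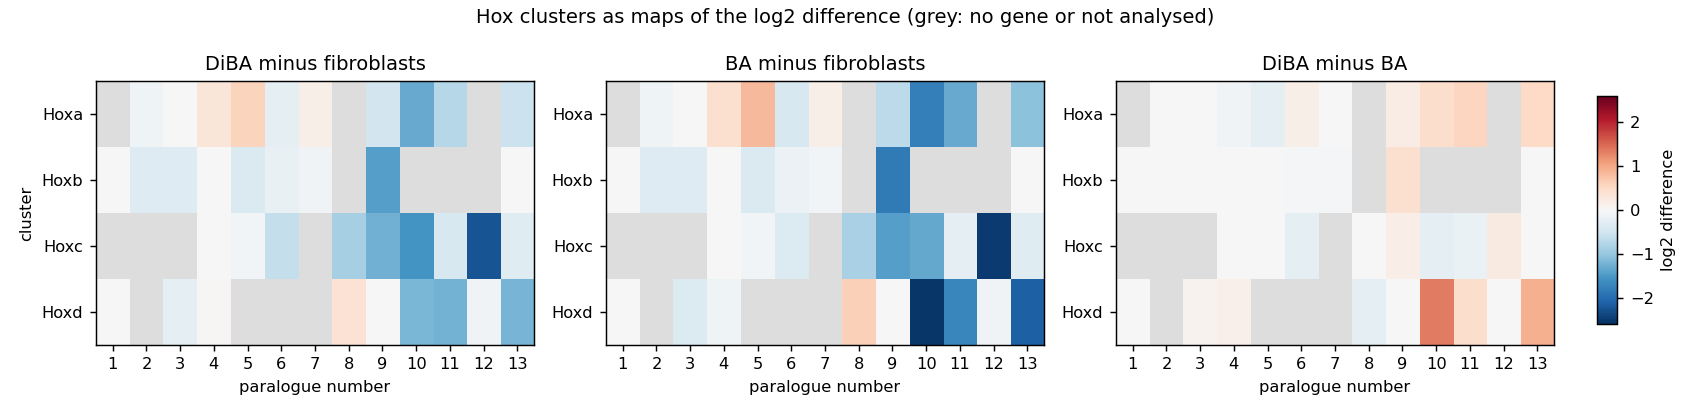
Map of the 4 Hox clusters (rows) by paralogue number (columns) for each of the 3 comparisons, coloured by log2 difference from blue (lower in the sample named first in the panel title) to red (higher), with grey where there is no gene or it was not analysed. In the comparisons with fibroblasts the darkest blue fields, past 2-fold, lie at paralogues 9 to 13, with paler blue also at Hoxb2, Hoxb3, Hoxb5, Hoxc6 and Hoxc8 and pale red at Hoxa4, Hoxa5 and Hoxd8. In DiBA minus BA the strongest red fields are Hoxd10 and Hoxd13, with paler red at Hoxa10, Hoxa11, Hoxa13, Hoxb9 and Hoxd11.

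The probe sets of 13 Hox genes stayed under 69.2 on all 3 arrays, 3 anterior, 4 middle and 6 posterior. Their intensities ran from 23.8 to 63.1 in DiBA, from 25.1 to 64.0 in BA and from 28.4 to 67.5 in fibroblasts. Background sets much of such values, so these genes show neither use nor silence of the locus. They are Hoxa3, Hoxa11, Hoxb6, Hoxb7, Hoxb13, Hoxc4, Hoxc11, Hoxc13, Hoxd1, Hoxd3, Hoxd4, Hoxd9 and Hoxd12. The related lists below were chosen with earlier results of these data known.

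Hox proteins bind DNA with partners of the TALE homeodomain class, the PBX, MEIS and PREP proteins. Of 8 measured partner genes, 3 were called lower and 0 higher in DiBA than in fibroblasts, and 4 were called lower and 0 higher in BA, beside 7.67% and 9.59% of all genes called lower. Meis1 had 122 in DiBA, 112 in BA and 356 in fibroblasts, a log2 difference of -1.54 in DiBA and -1.66 in BA. Meis2 had 264 in DiBA, 243 in BA and 669 in fibroblasts, or -1.34 and -1.46. Pknox2, which encodes PREP2, had 54.0 in DiBA, 32.0 in BA and 144 in fibroblasts, or -1.40 and -2.13. Pbx3 had 315 in DiBA, 222 in BA and 612 in fibroblasts, a log2 difference of -0.96 that missed the threshold in DiBA and of -1.46 in BA. Pbx2 had higher values in DiBA and BA, at 405 and 449.9, against 283 in fibroblasts, and Pbx4 was at 81.7 throughout. The median over the 8 genes was -0.84 in DiBA and -1.07 in BA.

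Limb identity factors act in the same positional programme and mark the hindlimb (Pitx1, Tbx4) or the forelimb (Tbx5). Tbx4 had 121 in DiBA, 89.5 in BA and 324 in fibroblasts, a log2 difference of -1.41 in DiBA and -1.85 in BA. Tbx5 had 97.7 in DiBA, 90.5 in BA and 189.9 in fibroblasts, or -0.95 and -1.06, past the threshold in BA. Pitx1 had 81.0 in DiBA and BA and 127 in fibroblasts. Genes of both limb pairs were thus highest in fibroblasts.

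Polycomb proteins keep silent Hox genes closed, and the MLL proteins with the histone H3K27 demethylases keep active ones open. Of 11 genes of Polycomb repressive complex 2, 2 were called higher and 1 lower in each comparison with fibroblasts. Over all genes 8.54% were higher and 7.67% lower in DiBA, and 9.51% and 9.59% in BA, so the lower count is near the share over all genes. Ezh2, the methyltransferase typical of dividing cells, had 430.0 in DiBA, 369 in BA and 891 in fibroblasts, a log2 difference of -1.05 and -1.27. Ezh1, its counterpart of resting cells, had 447 in DiBA, 496 in BA and 155 in fibroblasts, or 1.52 and 1.67. Jarid2, a recruiting subunit, was higher at 1.11 and 1.25, and the core subunit gene Suz12 was at 530.4 on all 3 arrays. The median of the list was -0.29 in each.

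Of 10 genes of Polycomb repressive complex 1, 1 was called higher in each comparison with fibroblasts. This count is near the share over all genes, 8.54% higher in DiBA and 9.51% in BA. The called gene was Cbx7, whose protein reads the Polycomb mark. It had 172 in DiBA, 203 in BA and 70.1 in fibroblasts, log2 differences of 1.28 and 1.52. Of 10 MLL and demethylase genes, 0 were called in DiBA and 1 was lower in BA, Psip1 at a log2 difference of -1.07. That count is near the 9.59% of all genes called lower in BA. Kmt2a, which encodes MLL1, had 379.9 in DiBA, 291 in BA and 540.2 in fibroblasts. The 3 CDX genes, which switch on posterior Hox genes in the embryo, each had the same value on all 3 arrays. In DiBA against BA, 0 genes of the partner, limb, Polycomb, MLL and CDX lists were called.

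**Figure D4:**
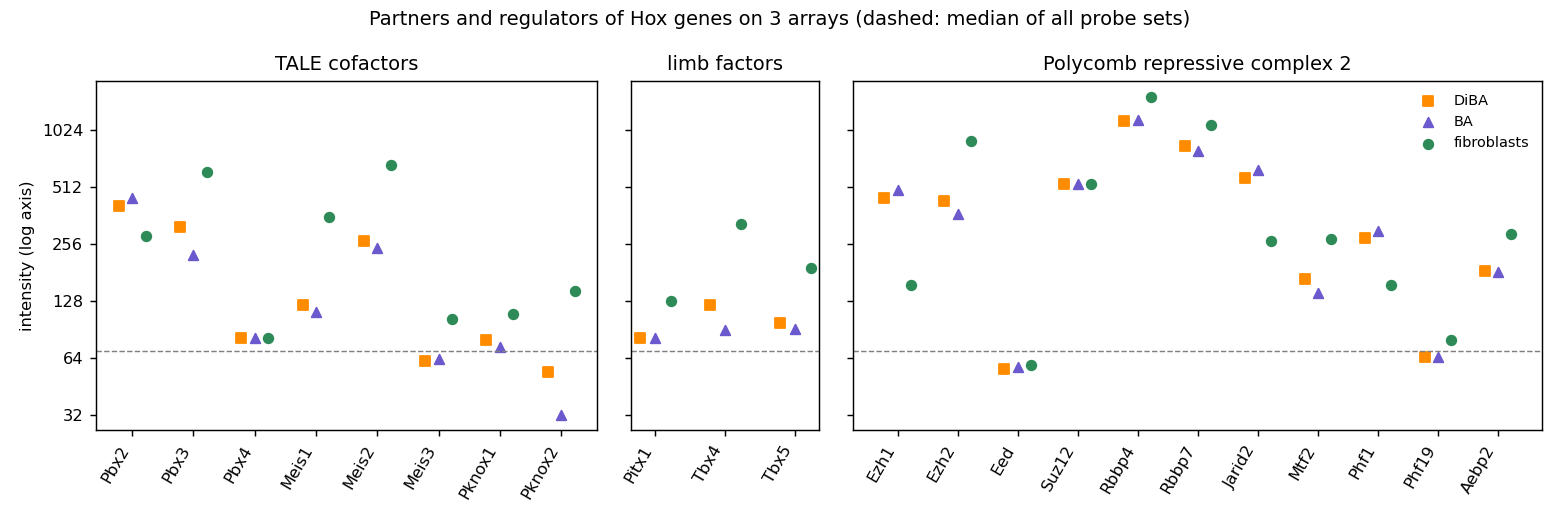
Intensity on a log axis (vertical) of measured TALE partner genes, limb identity factors and genes of Polycomb repressive complex 2 (horizontal), 1 point per array for DiBA, BA and fibroblasts, with the dashed line at 69.2. Fibroblasts are highest for Meis1, Meis2, Pknox2, Pbx3, Tbx4 and Ezh2 and lowest for Ezh1 and Jarid2.

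Genes flanking the clusters were called in both directions, with a lower count near the share over all genes. Of 22 measured genes among the 3 nearest named protein-coding ones on each side of each cluster, 4 were called higher and 2 lower in both comparisons with fibroblasts, beside the shares of all genes of 8.54% higher and 7.67% lower in DiBA and 9.51% and 9.59% in BA. The higher ones were Snx10, a sorting nexin gene, at log2 differences of 2.72 in DiBA and 2.80 in BA, the adaptor gene Skap2 at 1.51 and 1.68, the valine breakdown gene Hibadh at 1.63 and 1.62, and the mitochondrial import gene Mtx2 at 1.36 and 1.46. The first 3 flank Hoxa, and Mtx2 flanks Hoxd. Lower were the heterochromatin gene Cbx5 beside Hoxc, at -1.28 and -1.70, and Atp5g1, a subunit of ATP synthase, beside Hoxb, at -1.01 and -1.27. Their median was 0 in DiBA and 0.05 in BA. Evx1 and Evx2, homeobox genes at the 5′ ends of Hoxa and Hoxd, were at 32.6 and 112 on every array.

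Of 10 measured non-coding transcripts of the clusters, 1 reached 69.2 and 0 were called in any comparison. That was Mir615, in the Hoxc cluster, at 108.7 on all 3 arrays. The miR-196 genes, whose products target Hox transcripts in mice, were dim. Mir196b had 37.4 in DiBA and BA and 45.9 in fibroblasts, and Mir196a-1 had 13.4 in DiBA and BA and 19.0 in fibroblasts.

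Markers of other cell types also differed between the arrays. Over all genes, 8.54% were called higher and 7.67% lower in DiBA, and 9.51% and 9.59% in BA, than in fibroblasts. In DiBA against BA these shares were 0.973% and 0.0%. Skeletal muscle markers were called higher in 15 of 15 genes in DiBA and in BA, with summed intensities of 18826 in DiBA, 21262 in BA and 2625 in fibroblasts. Endothelial markers were higher in 9 of 10 in both, with sums of 3475 in DiBA, 4144 in BA and 693 in fibroblasts. Macrophage and immune markers were higher in 9 of 10 genes in DiBA and 8 of 10 in BA, with sums of 5122 in DiBA, 5270.0 in BA and 1404 in fibroblasts. Neural and Schwann cell markers summed to 435 in DiBA, 480 in BA and 321 in fibroblasts over 5 genes. Only 1 of the 5 was called higher in both, S100b, at 214 in DiBA, 260 in BA and 52.8 in fibroblasts. Of the others, 3 had lower values in DiBA and BA and 1 was the same on all 3 arrays. Sox10, which defines Schwann cells, lay under 69.2 on every array, at 62.9 in DiBA and BA and 65.1 in fibroblasts. Of the fibroblast and matrix markers, 14 of 21 were lower in DiBA and 16 of 21 in BA, with 2 higher in each, and in DiBA against BA 4 were higher and 0 lower. The part of other cell types and of fibroblast content in the Hox differences was not tested, and the body site from which each sample came cannot be told apart from its cell type in this design.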

How the data were processed

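Total RNA was labelled with biotin by a whole-transcript terminal labelling kit, per the labels' protocols. The authors deposited 1 linear intensity per probe set and array. Per the submitters' processing notes, they used Affymetrix Expression Console. How it summarized, background-corrected and normalized the probes, and in which version, is not given in the sources used here. Array medians were 71.5 for DiBA, 67.7 for BA and 67.8 for fibroblasts, so the values were taken as normalized. Precision is limited by the number of arrays, 1 per group, and no p-value is given.

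Of 28943 probe sets, 21789 carried a single symbol in the platform's probe table, giving 19938 genes. Probe sets of 1 gene were averaged. Differences are of log2(intensity + 1), which understates the change of dim genes. Calls needed 2-fold and 69.2 on the brighter array. Every Hox gene was accounted for, and genes of related lists were named where called, or to show an uncalled member. Members and lists were chosen with earlier results of these data known. The calling steps were tested on simulated data, with changes placed only in genes far brighter than 69.2. That test does not cover dim genes such as the called Hox genes. Python 3.11.15, NumPy 2.4.6, pandas 2.3.3 and Matplotlib 3.10.9 were used. Alternatives changed scaling, filter, floor, pseudocount and probe set choice.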

Additional observations from a re-analysis of the deposited data

How the results depend on the processing

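The 18 calls of Hox genes over the 3 comparisons all held under centring, quantile normalization, no filter and the highest probe set per gene, and 0 calls changed sign under any of the 7 alternatives. Raising low intensities to 69.2 ended 6 of the 18, a pseudocount of 16 ended 2 and the 75th percentile filter ended all 18, so that 0 held under every alternative. Under the filter at the 75th percentile, an intensity of 246, 0 Hox genes and 0 posterior genes were called in any of the 3 comparisons, because no called gene reached it. With intensities raised to 69.2, 0 Hox genes were called in DiBA against BA, while 6 remained lower in each comparison with fibroblasts. The calls ended by the pseudocount were those of Hoxc9 in DiBA and Hoxa13 in BA. Called genes lay at intensities where background weighs on the dimmer array, which limits their folds. No paired analysis was possible because each group holds 1 array.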
